A study of Mus musculus with 32 samples.

Results

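Pol II occupancy of mouse heart was compared with that of brain, kidney and liver over 24473 of the 27179 genes in the study's table of Pol II signal per gene. The study ran chromatin immunoprecipitation and sequencing, using an antibody to the C-terminal tail of RNA polymerase II, abbreviated Pol II, on 4 mouse organs, each kept frozen or as formalin-fixed, paraffin-embedded (FFPE) tissue. Its 32 libraries comprise 16 Pol II libraries and 16 input libraries, 2 for each organ and preservation, and the input libraries were not used here. Heart accounts for 4 of the Pol II libraries and brain, kidney and liver for 12, and the table gives 1 column, called a profile below, for each organ and preservation, so that 2 heart profiles stood against 6 others. Frozen organs were cored and crosslinked with 1% formaldehyde for 30 min, and FFPE organs were fixed in 10% formalin, so preservation and crosslinking changed together. All mice were untreated as far as the labels say, and strain, age and sex are not given. The labels also do not give the chamber of the heart that was sampled, or whether a profile is 1 library or both combined. Genes were kept where the log2 level was at least 2 in both heart profiles or in at least 2 of the others. Of the 24473 genes, 124 passed only through the heart profiles, and 7 of these are among the genes called higher below, so they could be called in that direction only.

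Pol II reads over a gene reflect polymerase on its DNA, both paused near the start and moving along the body, and not the store of finished RNA. No input was subtracted, so the reads also include background. Heart muscle cells contract through sarcomeres, in which myosin of the thick filament pulls on actin of the thin filament each time calcium is released from the sarcoplasmic reticulum. They obtain most of their energy from fatty acids burned in a dense store of mitochondria, and they are fed by a dense capillary bed. Endothelial cells, fibroblasts, pericytes and macrophages share the organ with them.

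All 4 markers of heart muscle cells stood far above the other organs. Myh6 encodes the alpha myosin heavy chain of the adult mouse heart and lies at chr14:54941921-54968017 (mm10, RefSeq annotation of GRCm38.p6). Its level was 11.90 in frozen and 10.77 in FFPE heart, on the authors' scale of log2 CPM (reads scaled to a common total), and between 4.94 and 5.90 in the 6 other profiles. The heart difference, which is the heart level minus the mean of brain, kidney and liver with preservation as a block, was 5.94 ± 0.28 (log2, SE; adjusted p = 5.6e-12). Actc1, the cardiac alpha actin gene at chr2:114047282-114052875, had levels of 9.66 and 7.86 in frozen and FFPE heart against 1.91 to 3.57 elsewhere, a difference of 5.80 ± 0.39. Tnnt2, the cardiac troponin T gene at chr1:135836315-135852268, had levels of 8.44 and 7.50 against 3.65 to 4.44, a difference of 4.00 ± 0.31. Myl2, the ventricular regulatory myosin light chain gene at chr5:122092724-122113473, had levels of 7.63 and 5.99 against 1.67 to 3.49, a difference of 4.11 ± 0.51. In each of these genes the frozen heart profile was the higher of the pair, and neither heart profile overlapped any other organ. The defining genes of fast skeletal muscle did not pass: Myh1 differed by 0.16 ± 0.34, Myh2 by -0.27 ± 0.32 and Myh4 by 0.06 ± 0.33. In bulk tissue, a lower share of a cell type and less Pol II per cell cannot be told apart.

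The depth behind these values was modest. Every value of the table came out as a whole number of reads, from which the profiles were found to hold 864816 to 2178329 reads in genes, with 1583260 in frozen and 923888 in FFPE heart. Genes of the mitochondrial genome, which Pol II does not transcribe, took 12.0% of the reads in frozen heart and 25.6% in FFPE heart, against 7.73% to 19.2% in the other profiles. The median tested gene had 34 reads in frozen and 19 in FFPE heart. Since nothing in the labels ties profiles to separate animals, p-values measure only the spread between these profiles, which may be technical.

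Of all 24473 genes, 830 (3.39%) passed an adjusted p of 0.05 as higher in heart and 586 (2.39%) as lower, by limma with Benjamini-Hochberg adjustment. The median difference over all tested genes was -0.0053, and 49.7% of the tested genes lay above 0. Both heart profiles lay above all 6 others for 1979 genes (8.09%) and below all 6 for 1420 genes (5.8%). Of the 830 genes called higher, 704 had both heart profiles above all 6 others, and of the 586 called lower, 356 had both below. The higher genes had a median difference of 1.33, with 673 at or above 1, 139 at or above 2 and 39 at or above 3. They had a median of 152 reads in frozen and 70 in FFPE heart, against 34 and 19 over all tested genes. Lists of well-read and of sparse genes are therefore not equally open to a call. They comprised 716 of 20295 tested protein-coding genes, 75 of 2001 long noncoding RNA genes and 5 of 82 microRNA genes. Of the 830 genes, 649 (78.2%) belonged to none of the 48 gene lists, most of which are described below. The lists hold only 678 of the 24473 tested genes, and 181 of these 678 were called higher. Counts per list below stand beside the share of 3.39% over all tested genes. Of the 798 with a position in the annotation, 81 overlapped another gene called higher, so the reads of some neighbours cannot be told apart. The counts depend on how the spread is estimated: with the other 6 profiles treated as 1 group, so that differences between brain, kidney and liver count as spread, 95 genes were higher and 6 lower. Leaving out frozen heart gave 107 higher and 153 lower, and leaving out FFPE heart gave 245 and 178, with the lone heart profile assumed to vary like the others. Without frozen brain the counts were 575 and 350, without FFPE brain 569 and 275, without FFPE kidney 655 and 355, and without frozen kidney 596 and 350. Without frozen liver they were 1358 and 960, and without FFPE liver 1238 and 980.

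**Figure D1:**
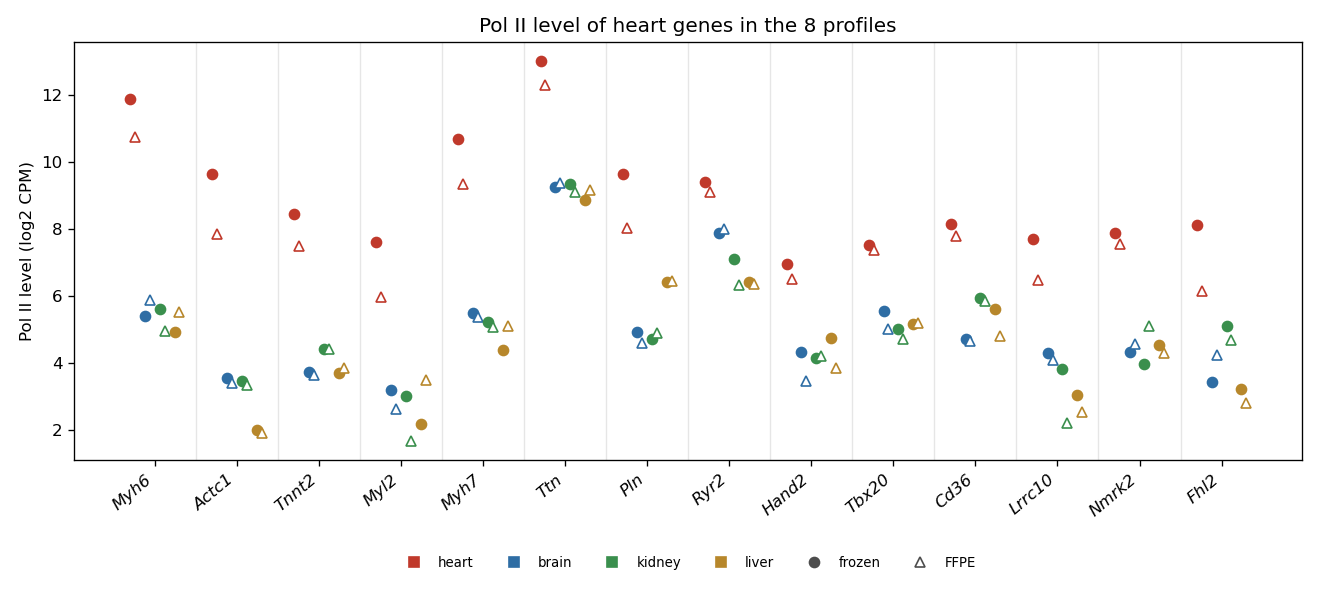
Pol II level (y axis, log2 CPM) of 14 heart genes (x axis) in the 8 profiles, coloured by organ, with filled circles for frozen and open triangles for FFPE tissue. For each gene both heart points lie above the 6 others, from Myh6, with heart at 11.90 and 10.77, to Fhl2, whose FFPE heart level of 6.17 lies nearest to a point of another organ, frozen kidney at 5.12.

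Reads at 5 of the 82 tested microRNA genes were called higher, against 3.39% of all tested genes, and all 5 were in muscle microRNA loci. Of these 5, 2 lie inside the myosin heavy chain genes. Mir208a (chr14:54949060-54949142) lies within Myh6 and had 95 reads in frozen and 22 in FFPE heart, a difference of 5.73 ± 1.10 (adjusted p = 0.0022). Mir208b (chr14:54975700-54975776) lies within Myh7 and had 38 and 14 reads, a difference of 4.96 ± 1.14 (adjusted p = 0.0097). Reads over these short spans cannot be told apart from Pol II that transcribes the host gene. Mir1a-1 (3.90 ± 1.16) and Mir133a-2 (4.49 ± 1.27) lie within the host transcript Mir1a-1hg, which itself differed by 4.80 ± 0.47. Mir133a-1, which overlaps the gene Mib1, differed by 4.23 ± 1.12, with 31 reads in frozen and 10 in FFPE heart. Taken singly, its differences from kidney (3.93 ± 1.37) and liver (3.51 ± 1.37) did not pass by limma (adjusted p = 0.14 and 0.13), and that from brain (5.24 ± 1.37) did. Mir133a-2 had 77 reads in frozen but 4 in FFPE heart. The mature sequences from RefSeq (GRCm38.p6) are shown because the microRNAs of the alpha and beta myosin genes share their seed. The capitals mark the seed, bases 2 to 8.
mmu-miR-208a-3p: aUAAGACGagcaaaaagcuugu
mmu-miR-208b-3p: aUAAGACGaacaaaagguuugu
mmu-miR-1a-1-5p: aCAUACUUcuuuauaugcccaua
The 3p arms of miR-208a and miR-208b have the seed UAAGACG in common and are identical at 19 of 22 bases. Their loci also gave the largest differences of the 5, while the table of mature sequences used here held only the 5p arm for Mir1a-1.

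The sarcomere core had the highest median difference of the 48 lists. All 12 tested genes of the sarcomere core were called higher, with a median of 3.80 against -0.0053 over all tested genes. Beside the markers, Myh7 encodes the beta myosin heavy chain that dominates the foetal mouse heart, and its level was 10.69 in frozen and 9.36 in FFPE heart against 4.39 to 5.49 elsewhere, a difference of 4.91 ± 0.29. Myh7 (chr14:54970684-54994626) is the close paralog and neighbour of Myh6, and no source used here says how reads that match both genes were assigned. Ttn, the gene of the giant spring protein titin, had 12335 and 4081 reads in frozen and FFPE heart and differed by 3.48 ± 0.25. Without frozen heart 9 of the 12 genes passed, and without FFPE heart all 12.

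Z disc and costamere genes, which anchor the sarcomere and tie it to the cell membrane, were called higher for 15 of 18. Tcap, whose product caps titin at the Z disc, had levels of 6.82 and 6.25 in heart against -0.32 to 3.55 elsewhere and differed by 4.12 ± 0.59. Actn2 (alpha-actinin) differed by 3.50 ± 0.31, Ldb3 by 3.10 ± 0.26, Des, the muscle intermediate filament gene, by 3.06 ± 0.33, and Csrp3 by 3.00 ± 0.43. The members outside the threshold were Vcl at 0.64 ± 0.22, Dmd at 0.27 ± 0.25 and Nebl at 0.32 ± 0.40. Dmd and Vcl are also used by other tissues. Of this list, 7 genes passed without frozen heart and 11 without FFPE heart. Of 17 genes of the dystrophin complex and its laminin ligands, 6 were higher, among them the sarcoglycan gene Sgca (2.22 ± 0.37) and the laminin gene Lamb2 (1.33 ± 0.25), but none passed without frozen heart and 2 without FFPE heart.

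Of 12 genes of the intercalated disc, the junction between heart muscle cells, 4 were higher (median 0.57). Gja1, the connexin 43 gene of the gap junctions, had levels of 8.05 and 7.32 in heart against 4.23 to 5.13 elsewhere, a difference of 2.95 ± 0.27. Dsp, the desmoplakin gene, differed by 1.39 ± 0.23, Lmo7 by 1.30 ± 0.23 and Xirp1 by 2.32 ± 0.25. The catenin gene Jup (0.59 ± 0.21), the tight junction gene Tjp1 (0.42 ± 0.25) and the cadherin gene Cdh2 (0.80 ± 0.26) did not pass. Without frozen heart 2 genes passed and without FFPE heart 4.

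The calcium cycle was called higher for 10 of 15 genes (median 1.27). Pln encodes phospholamban, the brake on the calcium pump, and had levels of 9.66 and 8.04 in frozen and FFPE heart against 4.61 to 6.45, a difference of 3.50 ± 0.29, although it lies within the span of Cep85l. Jph2, which holds the release site to the surface membrane, differed by 3.21 ± 0.29, Casq2, the calcium store protein gene, by 2.12 ± 0.31, and Atp2a2, the pump gene, by 2.07 ± 0.25. Ryr2, the release channel gene, was 9.42 and 9.12 in heart, 7.89 and 8.02 in brain and 6.33 to 7.11 in kidney and liver. Its difference was 1.31 ± 0.27 from brain and 2.88 ± 0.27 from liver. Asph (0.66 ± 0.21), Hrc (1.05 ± 0.35) and S100a1 (1.07 ± 0.44) did not pass. Without frozen heart 4 genes passed and without FFPE heart 6.

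Of 16 genes listed for the channels of the heart action potential, 8 were called higher (median 1.12). Popdc2 (3.07 ± 0.38), counted among them, encodes a cAMP-binding Popeye protein of the membrane and no channel, and it is also in the list of caveolae and membrane repair. Among the channel genes, Kcnj11, a pore subunit of the ATP-sensitive potassium channel, differed by 2.74 ± 0.43 and Kcna5 by 2.46 ± 0.41. Abcc9, the regulatory subunit that pairs with Kcnj11 or a close relative, differed by 1.40 ± 0.25 and is also used by pericytes. Kcnd3 (-0.18 ± 0.26), Hcn2 (-0.02 ± 0.35) and Kcnj2 (0.90 ± 0.28) did not pass. Of the receptors and enzymes that carry adrenergic and muscarinic signals, 5 of 15 were higher, led by Adcy6 (2.03 ± 0.22), the receptor gene Adrb1 (1.90 ± 0.28) and the muscarinic receptor gene Chrm2 (1.74 ± 0.47). Without frozen heart 1 gene of the channel list and 2 signalling genes passed, without FFPE heart 4 and 3, and with the other 6 profiles as 1 group 1 and 1. Without FFPE brain the counts were 5 and 2, and without frozen kidney also 5 and 2.

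Heart lineage transcription factors were called higher for 10 of 18 genes, and all 18 lay above 0 (median 1.52). Hand2, needed for the right ventricle, had levels of 6.96 and 6.51 against 3.47 to 4.75 elsewhere, a difference of 2.60 ± 0.32. Tbx20 had levels of 7.54 and 7.38 against 4.73 to 5.58 and differed by 2.33 ± 0.25. In both genes the heart profiles were close to each other and apart from all others. Ankrd1, a stress-responsive cofactor, differed by 3.01 ± 0.39, the SRF partner Myocd by 2.36 ± 0.31 and Gata6 by 2.17 ± 0.28. Gata4, which is also a liver gene, differed by 2.35 ± 0.33 from brain and 1.65 ± 0.33 from kidney, but by 0.54 ± 0.33 from liver. The broadly used factors Tead1 (0.61 ± 0.22) and Srf (0.56 ± 0.24) did not pass, nor did Prdm16 (0.53 ± 0.24). Without frozen heart 5 genes passed and without FFPE heart 7.

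**Figure D2:**
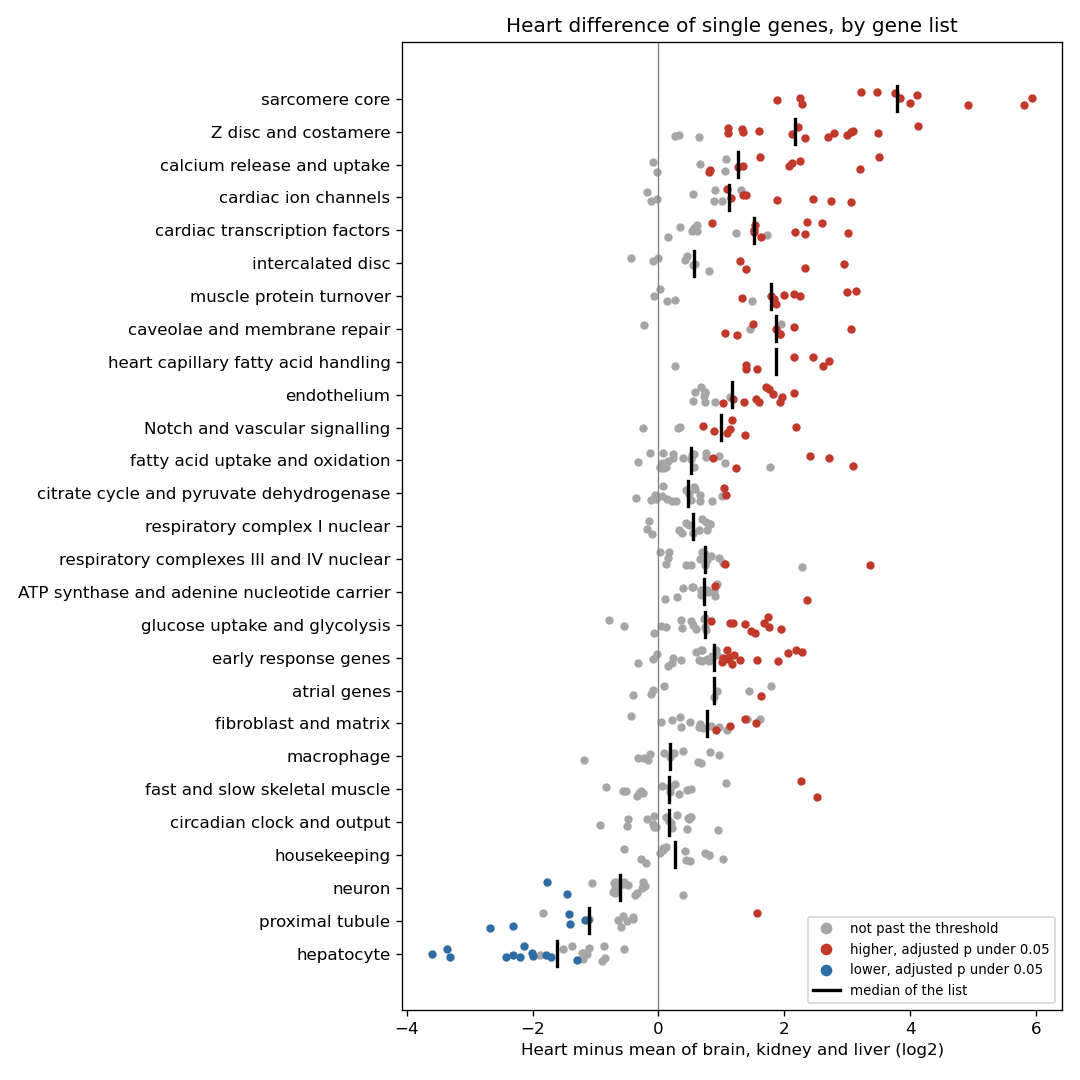
Heart difference (x axis, log2, heart minus the mean of brain, kidney and liver) of each tested gene, shown as a point, in 27 of the gene lists (y axis), with the list median as a black bar and genes past the threshold in red (higher) or blue (lower). The sarcomere core (median 3.80) stands to the right of all other lists shown, the respiratory lists hold medians of 0.54 to 0.74 with few red points, and the hepatocyte list has the lowest median, -1.61.

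Of 27 genes of fatty acid uptake and oxidation, 5 were called higher: Lpl, the lipase that frees fatty acids from lipoproteins, at 3.09 ± 0.33, the fatty acid transporter gene Cd36 at 2.71 ± 0.25, the carrier gene Fabp3 at 2.42 ± 0.44, Pdk4, which restrains glucose oxidation, at 1.23 ± 0.24, and Pnpla2 at 0.87 ± 0.25. Cd36 had levels of 8.16 and 7.82 in heart against 4.67 to 5.96 elsewhere. Of the members that did not pass, those with the most reads were Acsl1 at -0.13 ± 0.31, Cpt1a at 0.12 ± 0.23 and Hadha at 0.24 ± 0.24. For Acsl1 and Cpt1a both liver profiles lay above both heart profiles. The list median was 1.00 against brain, 0.51 against kidney and 0.03 against liver.

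For the citrate cycle, 2 of 20 genes were higher, citrate synthase (Cs) at 1.08 ± 0.23 and Ogdh at 1.04 ± 0.22. None of 15 nuclear genes of respiratory complex I passed by limma, 4 were higher at an unadjusted p under 0.05, and 1 passed with precision weights from voom, with 12 of the 15 above 0 and a median of 0.54. Of 18 nuclear genes of complexes III and IV, 2 passed, and all 18 lay above 0 (median 0.74). These were the muscle form Cox6a2, whose levels were 5.60 and 4.19 in heart against 0.83 to 1.97 elsewhere (3.37 ± 0.69), and cytochrome c, Cycs (1.06 ± 0.24). Of the ATP synthase genes and nucleotide carriers, 2 of 14 passed, the muscle carrier Slc25a4 (2.37 ± 0.32) and Atp5a1 (0.89 ± 0.24). All 14 lay above 0 (median 0.72). Ndufs1 of complex I was at 0.33 ± 0.24 and Atp5b of the ATP synthase at 0.39 ± 0.24. Among energy regulators, Perm1 (2.39 ± 0.27) and Lmcd1 (1.80 ± 0.40) were the 2 higher genes of 15, and Ppara, a receptor for fatty acids, was at 0.57 ± 0.23.

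Genes that buffer energy and oxygen, and the muscle forms of glucose enzymes, were higher in part. Mb, the myoglobin gene, had levels of 7.96 and 6.55 against 3.26 to 3.75 and differed by 3.73 ± 0.38. The mitochondrial creatine kinase gene Ckmt2 differed by 2.89 ± 0.41 and the muscle creatine kinase gene Ckm by 2.52 ± 0.58, whereas the brain form Ckb was at -0.17 ± 0.29. Ckm was 6.56 in frozen but 4.28 in FFPE heart. Of 24 genes of glucose uptake and glycolysis, 10 were higher, among them the glycogen targeting subunit Ppp1r3c (1.95 ± 0.30), muscle glycogen phosphorylase Pygm (1.75 ± 0.29), the hexokinase gene Hk2 (1.73 ± 0.26) and the insulin-regulated glucose transporter gene Slc2a4 (1.67 ± 0.33). Gapdh (0.73 ± 0.25), Hk1 (0.37 ± 0.29) and Gys1 (-0.07 ± 0.24) did not pass. Without frozen heart, 1 glucose gene, 2 fatty acid genes and none of the citrate cycle, respiratory or ATP synthase genes passed, and without FFPE heart 4 glucose, 3 fatty acid, 1 citrate cycle and 1 ATP synthase gene passed. With the other 6 profiles as 1 group 1 glucose, 2 fatty acid and 1 complex III or IV gene passed, and none of the citrate cycle, complex I or ATP synthase lists. Without frozen liver 8 fatty acid, 4 citrate cycle, 2 complex I, 5 complex III or IV and 7 ATP synthase genes passed.

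Chaperones and the turnover machinery of muscle proteins were higher in part. Of 20 chaperone genes, 10 were higher, led by Cryab (3.68 ± 0.29), Hspb1 (3.47 ± 0.36) and Hspb7 (3.13 ± 0.40), small heat shock genes whose products protect filaments. Unc45b, the myosin folding factor, differed by 2.28 ± 0.30 and Bag3 by 1.83 ± 0.24. The general chaperone genes Hspa8 (0.29 ± 0.33) and Hsp90ab1 (0.36 ± 0.30) did not pass. Of 15 turnover genes, 9 were higher, including the muscle ubiquitin ligase genes Trim63 (3.14 ± 0.34), Asb2 (3.00 ± 0.28) and Trim54 (2.25 ± 0.41), while Foxo1 (0.14 ± 0.24) and Foxo3 (-0.07 ± 0.25) did not pass. Of 11 genes listed as muscle splicing factors, 4 were higher: the splicing genes Rbm24 (3.02 ± 0.40), Rbm20 (2.14 ± 0.24), which splices titin, and Qk (1.23 ± 0.22), and Srl (1.99 ± 0.32), which encodes the calcium-binding protein sarcalumenin of the sarcoplasmic reticulum and is no splicing factor. Without frozen heart 3 genes of the chaperone, 3 of the turnover and 1 of the splicing list passed, without FFPE heart 5, 4 and 4, and with the other 6 profiles as 1 group 4, 5 and 1. Frozen liver stood apart for the chaperone list, with a summed level of 5173 CPM against 1077 in FFPE liver, 5857 in frozen heart and 1923 in FFPE heart. Without frozen liver 15 chaperone genes passed, without frozen brain 6 and without the preservation term 5. The part of frozen liver in these calls was not tested.

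Vascular genes were higher in part. Of 20 endothelial genes, 11 passed and all 20 lay above 0 (median 1.16). The VEGF receptor gene Kdr had levels of 8.30 and 7.89 in heart against 5.29 to 6.93 elsewhere and differed by 1.93 ± 0.23. Icam2 differed by 2.16 ± 0.46, Sox18 by 1.97 ± 0.34, Egfl7 by 1.82 ± 0.25 and Aplnr by 1.76 ± 0.31. The difference of Kdr was 2.73 ± 0.28 from brain, 1.87 ± 0.28 from liver and 1.18 ± 0.28 from kidney. Genes of capillaries that pass fatty acids to heart muscle were higher for 7 of 8, including Gpihbp1 (2.62 ± 0.47), which anchors the lipase encoded by Lpl to the capillary wall, Fabp4 (2.46 ± 0.47) and the transcription factor genes Tcf15 (2.15 ± 0.48) and Meox2 (1.39 ± 0.35). Gpihbp1 had 70 reads in frozen and 44 in FFPE heart. Of 11 genes of caveolae and membrane repair, 8 were higher, with Cavin2 at 2.15 ± 0.29, Cavin4 at 1.94 ± 0.43 and Cavin1 at 1.93 ± 0.26. Without frozen heart 4 endothelial, 1 capillary and 2 caveolar genes passed, without FFPE heart 3, 3 and 4, and with the other 6 profiles as 1 group 0, 2 and 4.

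Other cell types of the heart gave few calls. Fibroblast and matrix genes were higher for 4 of 18 (Sparc at 1.55 ± 0.31, Ltbp4 at 1.37 ± 0.24, Col3a1 at 1.13 ± 0.25 and Col5a1 at 0.91 ± 0.23), while Pdgfra was at 0.34 ± 0.24. Without frozen heart no fibroblast gene passed, and without FFPE heart 1. Pericyte and smooth muscle genes were higher for 3 of 14 and endocardial genes for 2 of 7, Npr3 (1.07 ± 0.28) and Nfatc1 (0.78 ± 0.23). Without frozen heart none of the pericyte genes passed, and without FFPE heart 1. No endocardial gene passed when any 1 of the heart or brain profiles or frozen kidney was left out. With the other 6 profiles as 1 group none of the genes of these 3 lists passed, and without FFPE liver 8 fibroblast and 5 pericyte genes did. By limma none of 13 macrophage, 12 lymphocyte and mast cell, 10 Schwann and autonomic neuron or 8 epicardial genes passed in either direction; at an unadjusted p under 0.05, 1, 0, 1 and 4 did, and with voom weights 1, 0, 1 and 2. Their medians lay between 0.11 and 0.33, and Csf1r, the macrophage growth factor receptor gene, was at -0.22 ± 0.25. Of 18 skeletal muscle genes only Ckm and the slow troponin gene Tnnt1 (2.26 ± 0.40) passed. By limma none of 14 housekeeping and none of 19 circadian genes passed, 4 of each had an unadjusted p under 0.05, and 2 and 1 passed with voom weights.

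Signalling genes that respond quickly to stretch, flow or growth factors were higher in part. Of 30 early response genes, 13 were higher, led by Ccn2 (2.29 ± 0.28), Klf2 (2.19 ± 0.28), Klf4 (2.06 ± 0.26), Ccn1 (1.89 ± 0.27) and Klf6 (1.57 ± 0.22). Klf2, a flow-responsive factor of endothelium, had levels of 7.88 and 7.57 in heart against 4.72 to 6.55 elsewhere. Jun (0.69 ± 0.25), Jund (0.67 ± 0.27) and Zfp36 (0.80 ± 0.29) did not pass. Of 10 Notch genes, 7 were higher, with the target Heyl at 2.19 ± 0.29, the arterial ligand Dll4 at 1.38 ± 0.27 and the endothelial receptor gene Notch4 at 1.17 ± 0.22. Of 16 genes of BMP and TGF beta signalling, 4 were higher, led by the target Id1 (2.19 ± 0.32). Of 12 Hippo pathway genes and targets, 5 were higher, and the leading ones, Ankrd1, Ccn2 and Ccn1, also stand in other lists. Without frozen heart 6 early response, 0 Notch, 1 BMP or TGF beta and 3 Hippo genes passed, without FFPE heart 4, 1, 0 and 2, and with the other 6 profiles as 1 group 1, 1, 0 and 1. Frozen liver stood apart for the early response list, with a summed level of 5571 CPM against 1949 in FFPE liver, 5231 in frozen heart and 4316 in FFPE heart. Without frozen liver 21 early response genes passed, and its part in these calls was not tested. Without FFPE liver 7 BMP or TGF beta and 8 Hippo genes passed, and with 1 of the brain profiles left out 4 Notch and 3 Hippo genes, whichever it was.

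Outside all lists, the genes with the largest differences include regulators and enzymes of striated muscle. The 20 named here were left after removing 12 gene models named by number or pseudogenes and 8 genes that overlap a listed or higher-ranked gene, such as Cmtm5 beside Myh6. Lmod2, which sets thin filament length, had levels of 8.15 and 6.87 against 3.22 to 4.23 and differed by 3.97 ± 0.39. Lrrc10, a leucine-rich repeat protein gene of heart muscle, had levels of 7.71 and 6.49 against 2.20 to 4.30 and differed by 3.76 ± 0.38. Nmrk2, the muscle nicotinamide riboside kinase gene, had levels of 7.90 and 7.55 against 3.99 to 5.10 and differed by 3.25 ± 0.30. Fhl2, a LIM domain cofactor gene, had levels of 8.14 and 6.17 against 2.80 to 5.12 and differed by 3.24 ± 0.39. In all 4 genes neither heart profile overlapped another organ. Adprhl1 differed by 2.89 ± 0.37, Frmd5 by 2.63 ± 0.29, Mylk3, the cardiac myosin light chain kinase gene, by 2.51 ± 0.32, and Abra, an actin-binding protein gene of striated muscle, by 2.31 ± 0.33. Plin4, a lipid droplet coat gene, had 911 and 244 reads and differed by 2.31 ± 0.25. Art1 (2.70 ± 0.50), Asb10 (2.30 ± 0.40), Txlnb (2.25 ± 0.27), Alpk3 (2.25 ± 0.26), Ptp4a3 (2.25 ± 0.26), Fam124b (2.45 ± 0.40), Cmtm1 (2.29 ± 0.50), Cst3 (2.28 ± 0.43) and Pf4 (2.75 ± 0.66) complete the set with Mir1a-1hg and Mir133a-1. Pf4, the platelet factor gene, had 47 reads in frozen and 18 in FFPE heart, and Cst3 encodes the protease inhibitor cystatin C. Some of the named genes overlap genes outside the lists: Nmrk2 overlaps Atcayos, Fhl2 Gm8210, Plin4 Hdgfl2, and Art1 both Chrna10 and Nup98. Reads in these overlaps cannot be told apart.

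The other organs stood at different distances from heart. Of the 830 genes called higher, kidney was the next highest organ for 425 (51.2%), liver for 205 (24.7%) and brain for 200 (24.1%). Over all tested genes, kidney was the highest of these 3 organs for 31.1%, liver for 34.7% and brain for 34.3%. The median difference of the 830 genes was 1.15 from kidney, 1.47 from liver and 1.55 from brain, and these differences share the heart profiles. For calcium genes the medians were 0.84 from brain, 1.49 from kidney and 1.74 from liver. For ion channel genes they were 0.69, 1.06 and 1.51. The fatty acid list ran the other way, with brain the farthest.

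**Figure D3:**
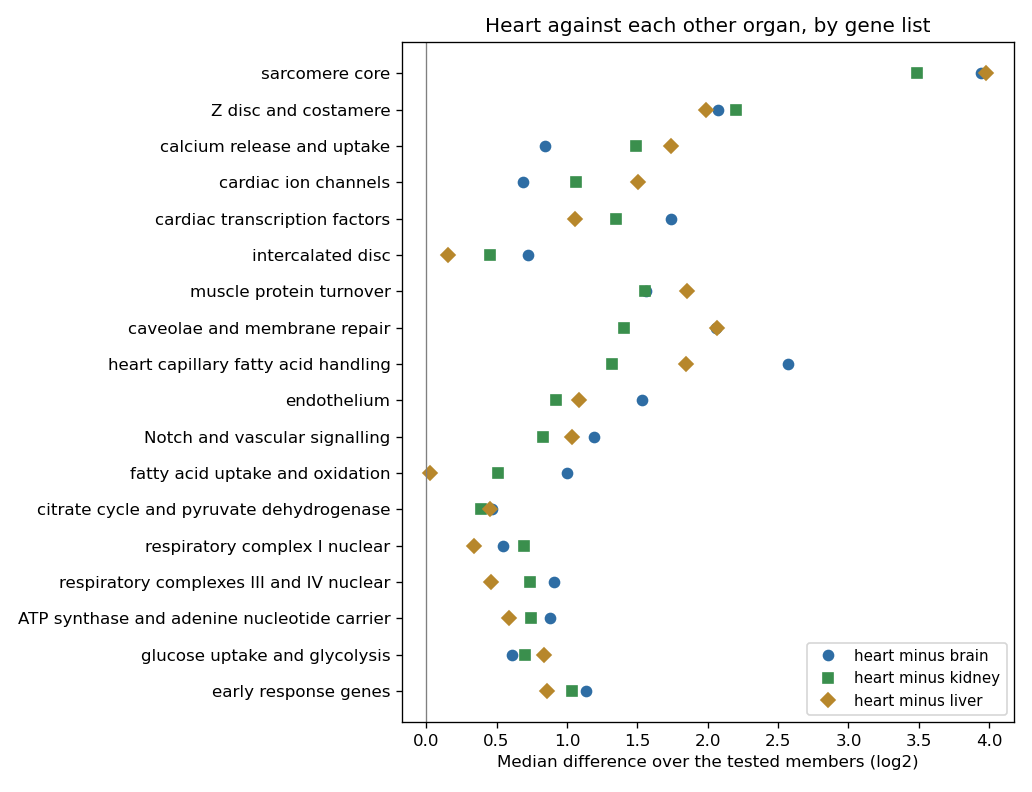
Median difference of heart from brain (circles), kidney (squares) and liver (diamonds) over the tested members (x axis, log2) of 18 gene lists (y axis). The 3 symbols lie close together near 3.49 to 3.98 for the sarcomere core, brain is nearest to heart for calcium (0.84) and ion channel genes (0.69), and liver is nearest for fatty acid genes (0.03).

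No gene passed the test of the difference between both preservations, by limma with adjustment over all tested genes, and 826 genes had an unadjusted p under 0.05. The smallest adjusted p was 0.9996. This test took brain, kidney and liver as replicates of 1 group, so differences between these organs counted as spread. With that spread it could miss real differences, so the lack of calls does not show that frozen and FFPE heart agree. All 830 higher genes lay above 0 and all 586 lower genes below 0 in each preservation alone, a direction that the call over both largely fixes. The frozen difference was the larger for 546 of the 830, and their median was 1.44 in frozen and 1.26 in FFPE tissue. FFPE heart also had the higher share of mitochondrial reads, 25.6% against 12.0%, and its part in this was not tested.

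Atrial genes are given by their level in each heart profile, and none of them passed the test of the difference between preservations. Over 9 atrial genes the median difference was -0.09 in frozen and 1.75 in FFPE tissue, and their summed level was 166 CPM in frozen and 472 in FFPE heart, against 160 to 358 in the other profiles. Those described next were chosen after their values were seen. Nppa, the atrial natriuretic peptide gene, was 3.38 in frozen and 6.47 in FFPE heart (15 and 70 reads), against 0.41 to 4.45 in the other organs. Myl7, the atrial regulatory light chain gene, was 2.12 and 5.06 (6 and 26 reads), and Myl4, the atrial essential light chain gene, 3.71 and 5.56. Sln, which encodes the atrial calcium pump inhibitor sarcolipin, had 0 reads in frozen and 9 in FFPE heart. Tbx5 was 4.76 and 6.78 and was the only one of the 9 called higher (1.63 ± 0.39, adjusted p = 0.013); without FFPE heart it did not pass. Nr2f2 (-0.12 ± 0.26) and Dkk3 (-0.40 ± 0.34), which did not pass, are used by many tissues. For each of Nppa, Myl7, Myl4, Sln and Tbx5, FFPE heart was the higher of the pair. Nppb, another natriuretic peptide gene, was 7.39 in frozen and 6.22 in FFPE heart and differed by 4.15 ± 0.49. The interaction was 3.06 ± 1.21 for Myl7 (unadjusted p = 0.031) and 2.28 ± 1.78 for Nppa (unadjusted p = 0.23), and neither passed after adjustment. Of the conduction system genes, Hcn4 (1.09 ± 0.32) and Tbx3 (1.04 ± 0.27) were higher, and Cntn2 (-1.16 ± 0.24), which brain uses, was lower. None of them passed when 1 of the heart profiles was left out or with the other 6 profiles as 1 group, and none was higher without frozen brain, frozen kidney or the preservation term.

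**Figure D4:**
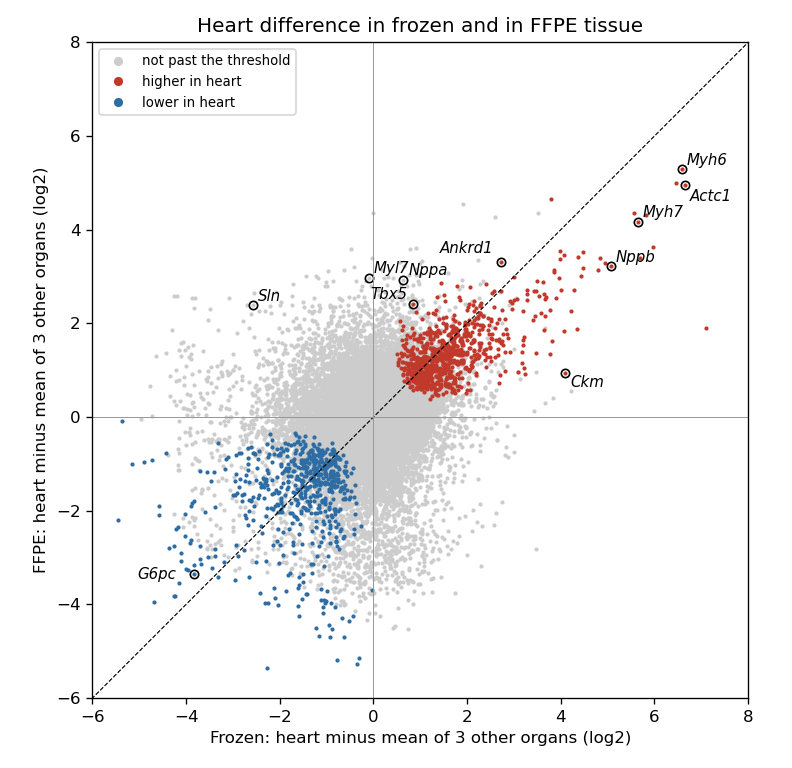
Heart difference in FFPE tissue (y axis, log2) against that in frozen tissue (x axis, log2) for all 24473 tested genes, each heart profile minus the mean of the 3 other organs of the same preservation, with genes called higher in red, called lower in blue, and the dashed line marking equal values. Myh6 and Actc1 lie far along the line but below it, and Nppa, Myl7, Tbx5 and Sln lie above it.

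**Figure D5:**
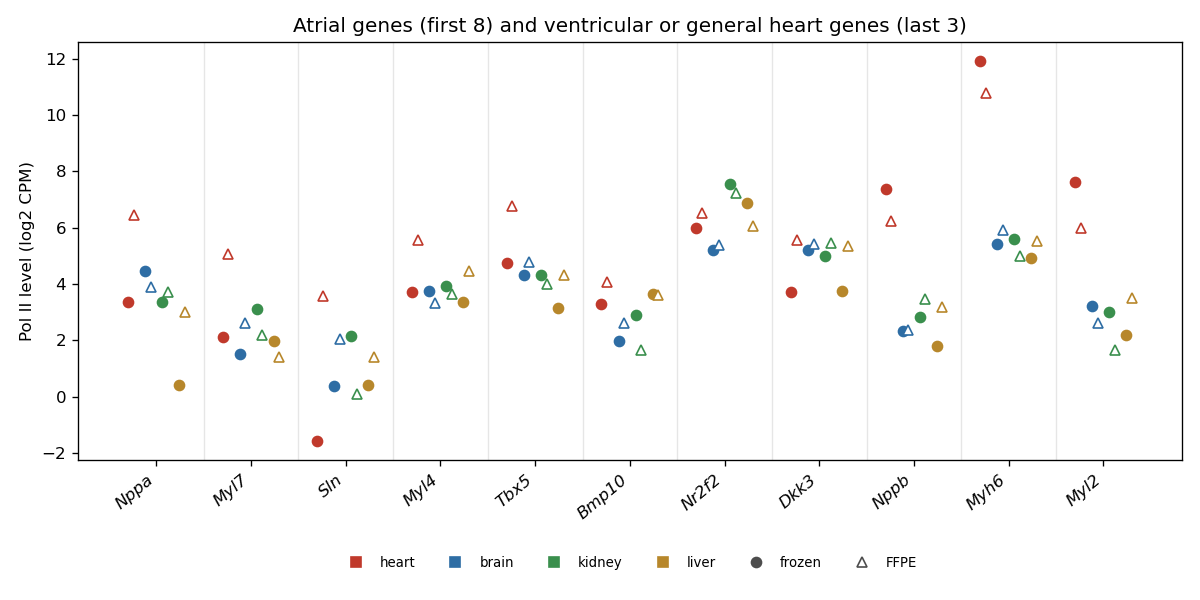
Pol II level (y axis, log2 CPM) of 8 of the 9 atrial genes and of Nppb, Myh6 and Myl2 (x axis) in the 8 profiles, with filled circles for frozen and open triangles for FFPE tissue. FFPE heart lies above frozen heart in each of the 8 shown, such as Nppa (6.47 against 3.38) and Bmp10 (4.08 against 3.28), and below it in Nppb, Myh6 and Myl2.

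The 586 genes called lower, 2.39% of those tested, had a median of -1.48, with 521 at or below -1, 147 at or below -2 and 38 at or below -3, and they had a median of 20 reads in frozen and 10 in FFPE heart. Of 24 hepatocyte genes, 12 were lower and none higher. The list median was -4.37 against liver but -0.22 against kidney and -0.13 against brain. Only 4 of the 24 had both heart profiles below all 6 others, so the list mainly sets liver apart. G6pc, which releases glucose from liver and kidney, had levels of 2.82 and 2.79 in heart, 3.63 and 3.76 in brain and 6.12 to 10.22 in kidney and liver, a difference of -3.60 ± 0.39. The fibrinogen gene Fgb differed by -3.37 ± 0.51 and Pck1, a rate-setting enzyme of gluconeogenesis, by -3.31 ± 0.35. Hnf4a, a transcription factor of liver and kidney epithelium, differed by -3.81 ± 0.37 from liver and -3.06 ± 0.37 from kidney but by -0.07 ± 0.37 from brain. Of 15 proximal tubule genes 6 were lower, led by Slc27a2 (-2.68 ± 0.31), and 1 was higher, the water channel gene Aqp1 (1.57 ± 0.27), which capillaries also use. Of 14 epithelial genes 3 were lower, Cldn1 (-2.23 ± 0.35), Ocln (-1.55 ± 0.30) and Cdh1 (-1.12 ± 0.33). Of 20 neuron genes 2 were lower, Tubb3 (-1.76 ± 0.43) and Map2 (-1.45 ± 0.29). Their list median was -1.95 against brain, -0.03 against kidney and 0.20 against liver, and 1 gene had both heart profiles below all 6 others. Of 14 distal nephron genes 1 was lower, Pax8 (-1.34 ± 0.34). Against kidney the medians of the proximal tubule and distal nephron lists were -2.47 and -1.68. They were -0.28 and -0.02 against brain, and -0.29 and -0.06 against liver. By limma none of 14 astrocyte and oligodendrocyte genes was lower, 4 had an unadjusted p under 0.05, and none passed with voom weights. Without frozen heart 2 hepatocyte, 1 proximal tubule, 1 neuron and no epithelial genes passed, and without FFPE heart 12, 3, 0 and 1. Without FFPE liver 22 hepatocyte genes were lower, and without frozen liver 5 neuron and 3 astrocyte and oligodendrocyte genes. With the other 6 profiles as 1 group no gene of these 6 lists was lower, and neither Pax8 nor Aqp1 passed when 1 of the heart profiles was left out.

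Many of the largest lower differences rest on very few reads. Of the 586, 20 genes had 0 reads in both heart profiles and 67 had 0 in FFPE heart, and 16 were olfactory or vomeronasal receptor genes. Such receptor genes were called lower for 1.22% of the 1316 tested, below the share of all genes. Of the genes with the largest lower differences outside the lists, 9 had 0 reads in both heart profiles, so only a bound can be given, from 3 reads in each heart profile. Vmn1r8 was at least 2.34-fold lower, Olfr561 at least 2.05-fold, Olfr1564 at least 1.76-fold, Olfr736 at least 1.73-fold, Aadacl4fm1 and Sycn at least 1.62-fold, Olfr971 at least 1.52-fold, Olfr1105 at least 1.48-fold and Tas2r118 at least 1.41-fold lower. To reach these genes, 8 gene models named by number or pseudogenes were left out. With the 20 genes at 0 set to their bound, the median of the 586 was -1.44.

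Promoters of the genes called higher were read for 4 short motifs, as a description. RefSeq (GRCm38.p6) promoters of 300 bases, from 250 before to 50 after the annotated start, were found for 17865 of the tested genes, of which 596 were called higher. Both strands were searched, and a gene counted once if any of its promoters held the motif. The CArG box, the site of SRF, was in 4.36% of the genes called higher, 0.903% of those called lower and 1.58% of those not called. The MEF2 site was in 2.18%, 0.451% and 0.559%. The motif CATTCC, the core of the M-CAT site of TEAD factors, was in 20.8%, 16.5% and 15.3%, and TATAAA, the TATA motif, in 13.8%, 14.7% and 14.0%. Over all 32851 promoters in the table the shares were 1.63%, 0.557%, 14.7% and 13.6%. Among the 25 sarcomere or Z disc genes with a promoter, 7 (28%) held a CArG box, 5 (20%) a MEF2 site, 10 (40%) CATTCC and 5 (20%) TATAAA. A match shows only that the letters are there.

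The promoters of 5 genes called higher are printed to show these motifs where the differences were large, in genes of the thick filament (Myh6, Ttn), the thin filament (Actc1), a cofactor (Fhl2) and a secreted peptide (Nppb). Each run is read 5′ to 3′ on the strand of the gene and covers 280 bases, up to 30 after the annotated start, and capitals mark the matches on either strand. Myh6 is at chr14:54966578-54966857 (minus strand, M-CAT core and TATA motif), Actc1 at chr2:114052846-114053125 (minus, CArG box), Ttn at chr2:76982518-76982797 (minus, MEF2 site and M-CAT core), Fhl2 at chr1:43196732-43197011 (minus, CArG box and TATA motif) and Nppb at chr4:147985650-147985929 (plus, M-CAT core and TATA motif).
Myh6: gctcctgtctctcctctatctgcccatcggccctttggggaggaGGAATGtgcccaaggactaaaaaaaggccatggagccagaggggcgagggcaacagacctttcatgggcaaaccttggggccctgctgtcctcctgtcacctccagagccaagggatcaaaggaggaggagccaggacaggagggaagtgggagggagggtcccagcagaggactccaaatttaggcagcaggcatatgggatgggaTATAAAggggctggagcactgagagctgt
Actc1: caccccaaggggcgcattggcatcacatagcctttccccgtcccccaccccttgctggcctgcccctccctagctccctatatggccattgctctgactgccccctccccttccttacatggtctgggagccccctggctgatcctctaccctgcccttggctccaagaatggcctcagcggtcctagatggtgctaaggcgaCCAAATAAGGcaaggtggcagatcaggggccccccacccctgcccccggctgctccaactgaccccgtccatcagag
Ttn: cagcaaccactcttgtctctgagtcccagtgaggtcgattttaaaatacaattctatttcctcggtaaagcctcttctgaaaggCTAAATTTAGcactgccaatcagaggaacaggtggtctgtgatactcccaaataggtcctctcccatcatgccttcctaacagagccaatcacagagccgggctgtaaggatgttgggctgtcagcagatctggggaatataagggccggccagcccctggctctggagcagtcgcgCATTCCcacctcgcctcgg
Fhl2: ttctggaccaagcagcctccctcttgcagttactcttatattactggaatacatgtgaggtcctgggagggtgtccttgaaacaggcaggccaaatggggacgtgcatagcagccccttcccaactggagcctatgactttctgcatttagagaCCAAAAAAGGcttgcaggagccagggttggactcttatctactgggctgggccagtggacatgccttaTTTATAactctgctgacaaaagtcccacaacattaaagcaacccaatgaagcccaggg
Nppb: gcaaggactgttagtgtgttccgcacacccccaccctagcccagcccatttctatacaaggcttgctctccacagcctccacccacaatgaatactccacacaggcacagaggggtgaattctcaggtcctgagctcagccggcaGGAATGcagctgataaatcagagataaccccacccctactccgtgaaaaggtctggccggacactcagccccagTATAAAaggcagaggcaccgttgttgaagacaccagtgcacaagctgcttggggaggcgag
Motifs read on the minus strand of a run appear as their reverse complement. Counted from the annotated start, the TATA motif of Myh6 lies at bases 1 to 6 and the CATTCC of Ttn at bases 11 to 16. Neither of these 2 matches is upstream of the start used. The Myh6 run lies wholly inside the gene span given above, so that start is not the outer end of the gene span. Fhl2 has 2 annotated promoters, and the other is not shown. The runs of Actc1 and Fhl2, which differed by 5.80 ± 0.39 and 3.24 ± 0.39, hold a CArG box, and that of Ttn, which differed by 3.48 ± 0.25, is the 1 of the 5 with a MEF2 site.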

How the data were processed

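RNA polymerase II ChIP-seq was read from 1 table of the whole series, in which the authors deposited log2 values per gene for 8 profiles. Per the submitters' processing notes the tools were Bowtie2, featureCounts and limma with mm10, with no version stated. The log2 scale is that of limma's voom function, read from the values: each equals a whole number of reads (tolerance 1e-06 reads) plus 0.5, scaled as CPM to a total that differs from the sum of reads by a factor of 0.862 to 1.12. Depth was 864816 to 2178329 reads in genes.

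Genes with log2 of at least 2 in both heart profiles or at least 2 others were fitted in R 4.3.3 by limma 3.58.1 with organ and preservation as terms, using its moderated test with a mean-variance trend (3 residual and 19.3 prior degrees of freedom). The contrast was heart minus the mean of the other organs, with Benjamini-Hochberg adjustment over 24473 genes. The interaction of heart with preservation was fitted separately. The fit was tested on simulated data. Of the 27179 rows, 25275 matched a RefSeq position. Columns carry no replicate number.

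Named per list were up to 5 members past the threshold with the largest difference and up to 3 others with the most reads. Outside the lists, the 20 highest and 10 lowest genes whose heart profiles lie beyond all others were named. Number-only models, pseudogenes and genes that overlap a listed or higher-ranked gene were left out. Members, lists and tests were chosen with earlier results of these data known. Alternatives changed the filter, scaling, spread, weights and profiles used. Input libraries were not analysed here. A few genes that these rules pick are not reported here.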

Additional observations from a re-analysis of the deposited data

Results flagged for a closer look

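Among the named and listed genes, Sln had heart differences of at least 1 on the log2 scale in opposite directions, -2.56 in frozen and 2.38 in FFPE tissue. Its difference in FFPE tissue minus that in frozen tissue was 4.95 ± 1.78 (log2, SE; unadjusted p = 0.021), with 0 reads in frozen and 9 in FFPE heart. It did not pass after adjustment over all tested genes by limma. The profiles of the other organs held only 1 to 8 reads of Sln. With 0 reads, frozen heart stood at the lowest level that its profile can show, -1.58. Neither the size nor the direction of the frozen difference is therefore settled, and the same limit holds for the 4.95.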

How the results depend on the processing

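The counts of 830 higher and 586 lower genes moved most with the estimate of spread. Treating the other 6 profiles as 1 group gave 95 and 6, without a preservation term 318 genes were lower, and with voom precision weights 1296 were higher and 371 lower. Leaving out 1 profile at a time gave 107 to 1358 higher and 153 to 980 lower genes, the fewest higher without frozen heart. The 2 filters, the quantile and median scalings, the omission of mitochondrial genes with the scaling factors, and added reads in proportion to depth kept both counts within 1.5 times, from 723 to 856 higher and 582 to 748 lower. No gene passed the test of the difference between preservations under the filters, scalings, added reads and left-out profiles of other organs tried for it, which were chosen after seeing the data. Of the 237 named or listed genes past the threshold, 72 passed without frozen heart, 119 without FFPE heart and 70 with the other profiles as 1 group, and none changed direction under any alternative. The limits are 2 heart profiles, a median of 34 and 19 reads per tested gene in them, and no replicate of an organ within a preservation. No paired analysis was possible because the columns carry no replicate number.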
